A study of Mus musculus with 6 samples.

Results

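The DNA methyltransferases, their partner UHRF1 and the TET dioxygenases were examined in cultured mouse granulocytes, as 7 genes of 19937 measured: Dnmt1, Uhrf1, Dnmt3a, Dnmt3b, Tet1, Tet2 and Tet3. They were chosen by symbol, as the probe sets of the value table annotated to exactly 1 of these names, which gave 10 of 21640 probe sets with a single gene symbol. All 7 were found and no filter on dim probe sets was applied, so every one was tested. RNA came from C57BL/6J granulocytes on 6 Affymetrix Mouse Gene 1.0 ST arrays, 3 labelled caffeine-plus and 3 labelled caffeine-minus. Per the labels' protocols, cells of both groups first stood in 15 mM caffeine for 4 hours before a wash. Both were then held for 4 hours in 2 µg/ml actinomycin D, which blocks transcription, with caffeine in the caffeine-plus cells and without it in the caffeine-minus cells. The sample labels nevertheless call the caffeine-minus cells untreated with caffeine, so what differed for certain was caffeine during the block. Caffeine inhibits SMG1, the kinase that drives nonsense-mediated decay of mRNAs with premature stop codons, and the series asks which transcripts accumulate when that decay is inhibited. The labels give neither the age of the mice nor whether the replicates are separate animals or cultures, and the spread behind the p-values may therefore be technical.

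DNMT1 copies methylation onto the new strand after replication, at sites that UHRF1, a ubiquitin ligase that binds hemimethylated CpGs, recognises. DNMT3A and DNMT3B set methylation at unmethylated sites. TET1, TET2 and TET3 oxidise methylcytosine to hydroxymethylcytosine and beyond, which starts its removal. DNMT3A and TET2 are known as genes that are often mutated in myeloid leukaemia and in clonal expansion of blood stem cells.

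The genes split. Tet2 was higher in the caffeine-plus cells by 1.91-fold, while Tet3 was 1.48-fold, Tet1 1.43-fold, Dnmt3a 1.41-fold and Uhrf1 1.35-fold lower, each by its brightest probe set. Dnmt1 and Dnmt3b did not pass the test, and the call of Tet3 held only with its brightest probe set. Thus 1 of 7 rose, 4 fell and 2 were not called, with a median log2 difference of -0.43, beside -0.04 over all genes. Over all 19937 genes, 16.2% rose and 21.7% fell (limma, adjusted p under 0.05), and 37.9% passed in either direction. With 7 genes these shares are a description, and nothing is read from them about the group. Every difference is given on the log2 scale as caffeine-plus minus caffeine-minus, with its standard error from limma. P-values were adjusted over all genes. Throughout, rose and fell mean higher and lower in the caffeine-plus than in the caffeine-minus arrays. No array from before the block is in the series, so change over time was not measured. The groups did not overlap in 5 of the 7 genes, with the caffeine-plus arrays above in 1 and below in 4, beside 45.9% of all genes without overlap and 19.5% with the caffeine-plus arrays above.

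**Figure D1:**
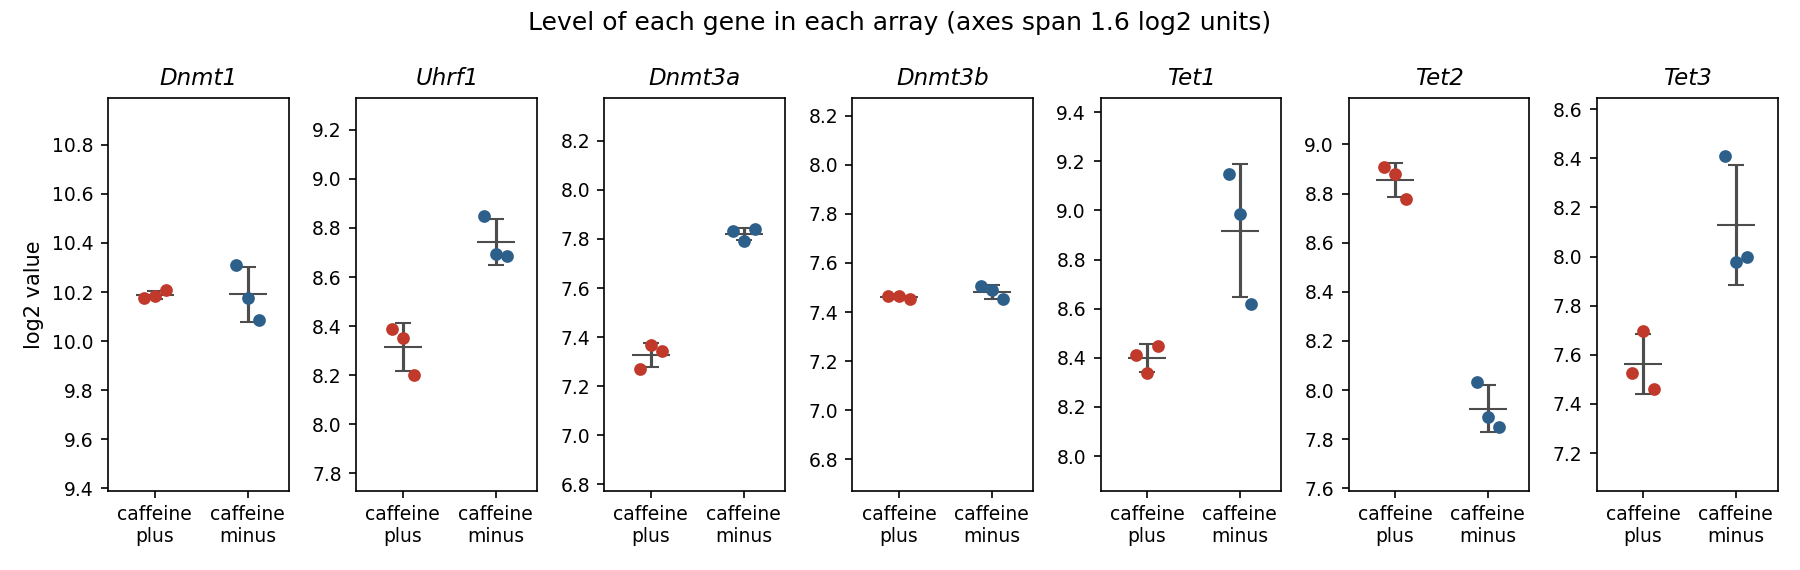
Log2 value (vertical axis, each panel spanning the same range around its own centre) of the 7 genes in the 3 caffeine-plus arrays (red, left) and the 3 caffeine-minus arrays (blue, right), at each gene's brightest probe set, with bars for mean ± SD (n = 3). Tet2 is higher in every caffeine-plus array, Uhrf1, Dnmt3a, Tet1 and Tet3 are lower, and Dnmt1 and Dnmt3b overlap.

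In the maintenance pair, Uhrf1 fell while Dnmt1 was not called. Dnmt1, the gene of the maintenance enzyme, had log2 values of 10.18, 10.18 and 10.21 in the caffeine-plus arrays, against 10.31, 10.18 and 10.09 in the caffeine-minus arrays. The caffeine-minus arrays lay on both sides of the caffeine-plus arrays. The log2 difference was 0.00 ± 0.06 (limma adjusted p = 0.99), with a 95% interval from -0.14 to 0.14. Uhrf1, the gene of the partner that recruits DNMT1, had 8.39, 8.35 and 8.20 in the caffeine-plus arrays, against 8.85, 8.69 and 8.69 in the caffeine-minus arrays. Every caffeine-plus array lay below every caffeine-minus array. It fell by 0.43 ± 0.08 on the log2 scale (limma adjusted p = 0.00048).

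The levels of the pair therefore did not move in step. The log2 ratio of Dnmt1 to Uhrf1 within an array was 1.79, 1.83 and 2.00 in the caffeine-plus arrays, against 1.46, 1.48 and 1.40 in the caffeine-minus arrays. Its mean was 0.43 higher in the caffeine-plus arrays, and the groups did not overlap. Such a ratio shows unequal change of the transcripts, and its level has no meaning of its own because the probe sets differ. With 3 arrays against 3 an exact permutation test cannot go below p = 0.10, so the ratios were given without a test.

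Among genes of the de novo enzymes, Dnmt3a had log2 values of 7.27, 7.37 and 7.34 in the caffeine-plus arrays, against 7.83, 7.79 and 7.84 in the caffeine-minus arrays. The arrays of each group lay close together and the groups were well apart. Dnmt3a fell by 0.49 ± 0.08 on the log2 scale (limma adjusted p = 0.00015). The non-coding genes Dnmt3aos and Gm31623 overlap the span of Dnmt3a in the reference annotation, and signal of overlapping transcripts may not be separable here. Dnmt3aos, measured by a probe set of its own, gave -0.11 ± 0.10 (limma adjusted p = 0.48), and Gm31623 was not measured.

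Dnmt3b, the gene of the other de novo enzyme, had 7.46, 7.46 and 7.45 in the caffeine-plus arrays, against 7.51, 7.49 and 7.45 in the caffeine-minus arrays. All arrays lay within a narrow band and the groups overlapped. The difference was -0.02 ± 0.08 (limma adjusted p = 0.89), with a 95% interval from -0.20 to 0.16, so a change of the size seen in Dnmt3a lies outside it. The log2 ratio of Dnmt3a to Dnmt3b was -0.19, -0.10 and -0.11 in the caffeine-plus arrays, against 0.32, 0.30 and 0.39 in the caffeine-minus arrays, a mean shift of -0.47. Every caffeine-plus array had a lower ratio of these related genes than every caffeine-minus array.

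The TET genes went both ways. Tet2, whose protein lacks the CXXC DNA-binding domain found in TET1 and in the long form of TET3, had log2 values of 8.91, 8.88 and 8.78 in the caffeine-plus arrays, against 8.03, 7.89 and 7.85 in the caffeine-minus arrays. The lowest caffeine-plus array stood well above the highest caffeine-minus array. The log2 difference was 0.93 ± 0.08 (limma adjusted p = 1.4e-07), with a 95% interval from 0.76 to 1.10. Of all genes, 3.24% (646 of 19937) had a larger log2 difference.

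Tet1 had 8.41, 8.34 and 8.45 in the caffeine-plus arrays, against 9.15, 8.99 and 8.62 in the caffeine-minus arrays. The caffeine-minus arrays were spread widely but the lowest of them still lay above the highest caffeine-plus array. Tet1 fell by 0.52 ± 0.11 on the log2 scale (limma adjusted p = 0.0010). Its other probe sets, 10369690 and 10369688, gave -0.23 ± 0.12 (limma adjusted p = 0.16) and -0.32 ± 0.10 (limma adjusted p = 0.020) in a fit of every probe set. The first had 7.10, 6.98 and 6.77 in the caffeine-plus arrays, against 7.37, 7.15 and 7.00 in the caffeine-minus arrays, with overlapping groups. The second had 6.57, 6.39 and 6.47 in the caffeine-plus arrays, against 6.94, 6.74 and 6.72 in the caffeine-minus arrays, and its groups did not overlap. All 3 Tet1 probe sets were thus lower on average in the caffeine-plus cells, and 2 of them passed. In that fit of 21640 probe sets, 16.3% rose and 21.4% fell. The non-coding gene Gm51805 overlaps the span of Tet1 in the reference annotation and was not measured.

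Tet3 depended on the probe set. Its brightest, 10545692, had 7.53, 7.70 and 7.46 in the caffeine-plus arrays, against 8.41, 7.98 and 7.9999 in the caffeine-minus arrays. Every caffeine-plus array was lower, and the probe set fell by 0.57 ± 0.11 on the log2 scale (limma adjusted p = 0.00068). The other, 10545682, had 7.61, 7.78 and 7.55 in the caffeine-plus arrays, against 7.29, 7.50 and 7.42 in the caffeine-minus arrays. Here every caffeine-plus array was higher, by a mean of 0.25 ± 0.10, but the probe set missed the threshold (limma adjusted p = 0.056). With the mean of both probe sets in place of the brightest, the call of Tet3 was lost (log2 difference -0.16, limma adjusted p = 0.20). The log2 ratio of the brightest to the other probe set was -0.09, -0.08 and -0.09 in the caffeine-plus arrays, against 1.12, 0.48 and 0.58 in the caffeine-minus arrays. A single direction for Tet3 as a whole gene was therefore not established by these arrays. The sources used here do not say which exons each Tet3 probe set covers, and the non-coding gene B230319C09Rik, which overlaps the span of Tet3 in the reference annotation, gave -0.20 ± 0.10 (limma adjusted p = 0.16).

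**Figure D2:**
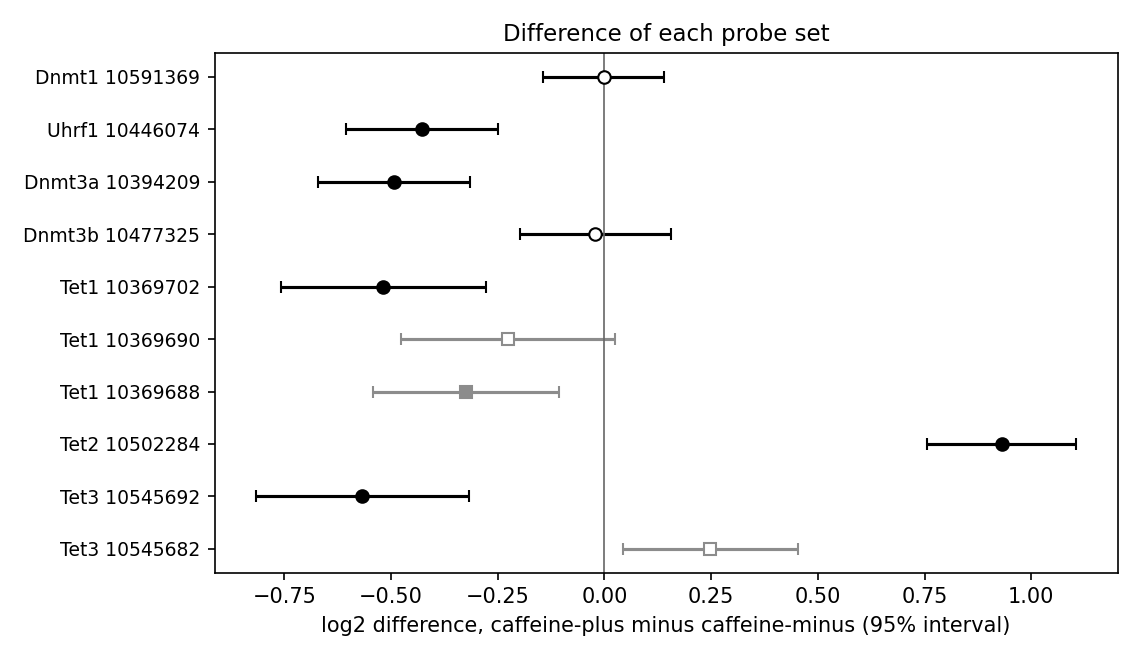
Log2 difference, caffeine-plus minus caffeine-minus, with its 95% interval for all 10 probe sets of the 7 genes in a fit of every probe set with a single symbol. Black circles are the brightest probe set of a gene and grey squares the others, filled where the adjusted p is under 0.05. Tet2 stands alone at 0.93, and the Tet3 probe sets lie on opposite sides of 0.

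The ratio of Tet2 to Dnmt3a was higher in the caffeine-plus arrays, while the ratios that hold Tet3 depended on its probe set. The log2 ratio of Tet2 to Dnmt3a was 1.64, 1.51 and 1.43 in the caffeine-plus arrays, against 0.20, 0.10 and 0.01 in the caffeine-minus arrays, a mean shift of 1.42. Tet2 to Tet3, at its brightest probe set, shifted by 1.50, with 1.38, 1.18 and 1.31 in the caffeine-plus arrays, against -0.38, -0.09 and -0.15 in the caffeine-minus arrays. Both ratios were higher in every caffeine-plus array. With the other Tet3 probe set, Tet2 to Tet3 shifted by 0.68, with 1.29, 1.10 and 1.22 in the caffeine-plus arrays, against 0.74, 0.39 and 0.43 in the caffeine-minus arrays, again without overlap. Tet3 to Dnmt3a, at the brightest Tet3 probe set, gave 0.26, 0.33 and 0.12 in the caffeine-plus arrays, against 0.58, 0.19 and 0.16 in the caffeine-minus arrays, with a mean shift of -0.07 and overlapping groups. With the other Tet3 probe set it gave 0.34, 0.41 and 0.21 in the caffeine-plus arrays, against -0.54, -0.29 and -0.42 in the caffeine-minus arrays, a mean shift of 0.74 with no overlap. No direction of Tet3 relative to Dnmt3a was therefore established.

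**Figure D3:**
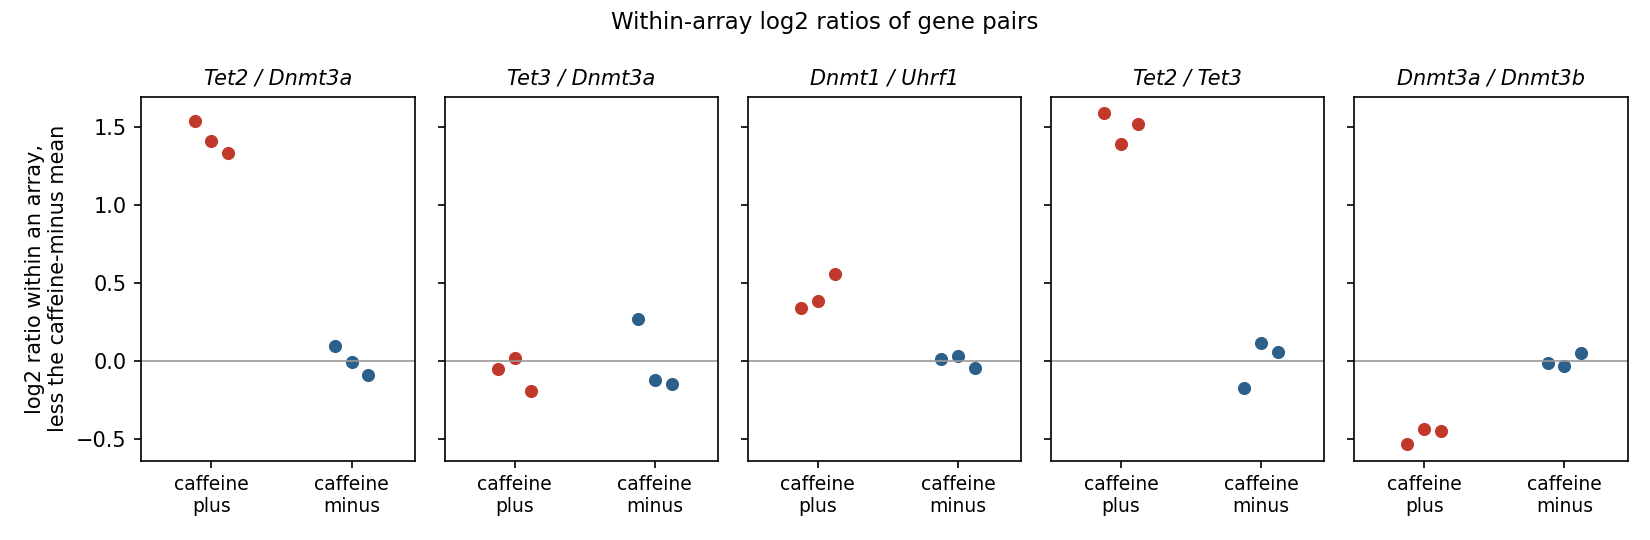
Log2 ratio of the first to the second gene within each array, less the mean of the caffeine-minus arrays (vertical axis), for 5 gene pairs at each gene's brightest probe set, with caffeine-plus arrays in red on the left and caffeine-minus arrays in blue on the right. Tet2 to Dnmt3a and Tet2 to Tet3 sit 1.42 and 1.50 higher on average in the caffeine-plus arrays, and Tet3 to Dnmt3a overlaps. With the other Tet3 probe set, not plotted, the shift of Tet2 to Tet3 was 0.68 and that of Tet3 to Dnmt3a 0.74.

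The promoter windows of Tet2 and Tet3 are shown as examples of these related genes, with 1 listed promoter each. Their brightest probe sets moved in opposite directions, but the other Tet3 probe set was higher in the caffeine-plus arrays. Tet1 also has 1 listed promoter and was lower, and its window is not printed. They are RefSeq sequences of GRCm38.p6, 250 bases before to 50 bases after the start, on the minus strand at chr3:133544341-133544640 for Tet2 and chr6:83441629-83441928 for Tet3. Capitals mark GGGCGG, the GC box bound by Sp1-family factors, and TGACG, a core site of CREB, a factor activated by cAMP, each on either strand.
Tet2: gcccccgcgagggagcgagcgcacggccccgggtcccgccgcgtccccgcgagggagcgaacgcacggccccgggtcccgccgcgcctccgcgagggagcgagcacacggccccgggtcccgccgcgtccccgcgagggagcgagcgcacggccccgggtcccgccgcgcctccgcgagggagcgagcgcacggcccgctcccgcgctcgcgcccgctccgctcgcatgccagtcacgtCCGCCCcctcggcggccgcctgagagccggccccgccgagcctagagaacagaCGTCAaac
Tet3: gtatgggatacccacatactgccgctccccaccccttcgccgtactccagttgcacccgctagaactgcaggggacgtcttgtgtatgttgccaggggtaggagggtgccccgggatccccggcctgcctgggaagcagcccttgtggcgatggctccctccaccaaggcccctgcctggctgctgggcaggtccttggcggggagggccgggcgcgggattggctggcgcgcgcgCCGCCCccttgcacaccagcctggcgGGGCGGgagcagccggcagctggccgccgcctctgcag
The Tet2 window held 57 CpG dinucleotides, beside a median of 7 over 32851 promoter windows of the same length, and 0.152% of these windows held as many or more. Much of the Tet2 window is a short stretch repeated in near-identical copies, and the count includes those copies. The Tet3 window held 22, the Tet1 window 17 and the Dnmt3b window 30. Genes with several windows held 46, 47 and 18 (Dnmt3a), 33, 12 and 2 (Dnmt1), and 33 and 12 (Uhrf1). The core site TGACG was found in 1 of the 12 windows listed for the 7 genes, that of Tet2, at base 293 and so after the start, beside 20.8% of all windows. The GC box was found in 10 of the 12 windows, beside 35.7% of all windows. The 12 windows are not independent, since some belong to the same gene and some of Dnmt3a overlap. Their GC content ran from 51.3% to 82.3%, beside a median of 52.7% over all windows, and the share was not matched for it. Transcription was blocked in both groups during the hours in which their caffeine differed. These windows are a description of the genes, and whether the promoters bear on the RNA differences was not tested.

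Among partners of maintenance methylation, Uhrf2 and Usp7 rose and Pclaf fell, each by at least 3.20-fold. Of 8 measured genes 3 rose and 2 fell (16.2% and 21.7% over all genes), and 4 fell after quantile normalization. The median log2 difference was -0.03. Opposite to Uhrf1, its paralogue Uhrf2 was 4.04-fold higher (2.01 ± 0.08, limma adjusted p = 6.0e-11). Usp7, the deubiquitinase that binds DNMT1 and UHRF1, was 3.20-fold higher (1.68 ± 0.05). Pclaf, which encodes a PCNA-bound protein that takes part in recruiting DNMT1, was 3.25-fold lower (-1.70 ± 0.08).

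Of 9 measured genes listed as partners of de novo methylation 4 rose and 3 fell (16.2% and 21.7% over all genes), with a median of 0.01. The list also holds Trdmt1, whose enzyme acts on tRNA and which was not called. Setd2, a methyltransferase that lays down a histone mark that DNMT3 enzymes can read, was 3.00-fold higher (1.59 ± 0.07). Setdb1, a histone methyltransferase of silent chromatin, was 1.57-fold lower and its partner Trim28 1.40-fold higher. Of 8 genes listed as methyl-CpG readers, some of which encode proteins that bind methylated DNA, Mbd2 alone passed, beside 37.9% of all genes. Mbd2 was 1.63-fold higher (0.71 ± 0.06, limma adjusted p = 1.4e-07). The next by p, Zbtb4 and Zbtb33, gave -0.23 ± 0.10 and 0.14 ± 0.09 (limma adjusted p = 0.080 and 0.24), and Zbtb4 was called as lower among genes above the median level and without caffeine-minus array 2.

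Of 15 TET partners and genes of active demethylation 2 rose and 5 fell (16.2% and 21.7% over all genes), with a median of -0.14. Polb, the gap-filling polymerase of base excision repair, was 2.57-fold higher (1.36 ± 0.08). Idh2, a mitochondrial source of the oxoglutarate that TET enzymes consume, was 1.75-fold lower (-0.81 ± 0.07). Ogt, the glycosyltransferase that binds TET proteins, was 1.19-fold higher (0.25 ± 0.05, limma adjusted p = 0.00045). The glycosylase gene Tdg has no probe set of its own in the annotation used here.

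Of 15 genes of the S-adenosylmethionine and one-carbon cycle, which supplies the methyl group, 3 rose and 4 fell (16.2% and 21.7% over all genes). Their median was 0.00. Mat2b, the regulatory subunit of methionine adenosyltransferase, was 2.76-fold higher (1.47 ± 0.09). The serine hydroxymethyltransferase genes Shmt1 and Shmt2 were 1.61-fold and 1.49-fold lower. Mat2a and Ahcy have no probe set of their own in the annotation used here.

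**Figure D4:**
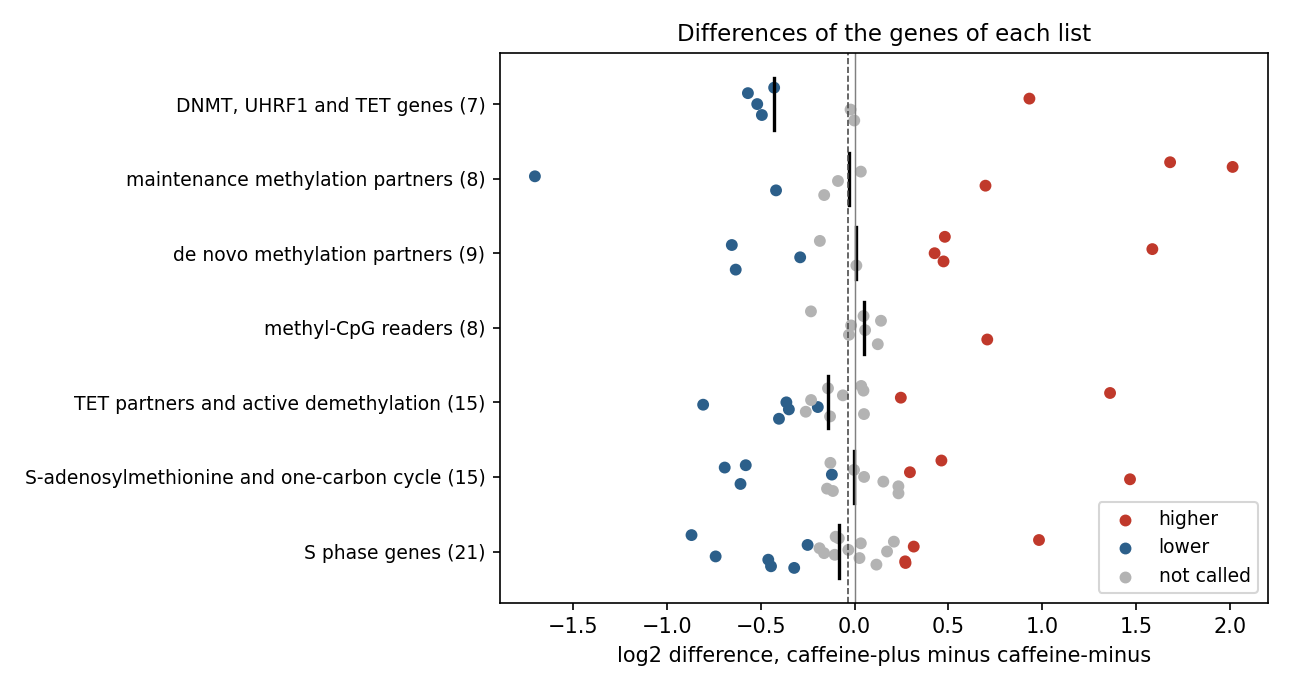
Log2 difference (horizontal axis, caffeine-plus minus caffeine-minus) of each measured gene in the 7 DNA methylation and TET genes and in 6 related lists, with the number of genes in brackets. Red genes were higher and blue lower at an adjusted p under 0.05, grey ones were not called, black bars are list medians and the dashed line is the median of all genes, -0.04. Every list holds genes on both sides of 0.

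Uhrf1 and Dnmt1 are known as genes of dividing cells, so S phase genes were set beside them. Of 21 measured, 4 rose and 6 fell (16.2% and 21.7% over all genes), with a median of -0.08. Tyms and Fen1 were 1.83-fold and 1.67-fold lower and Rfc3 1.98-fold higher. Without caffeine-plus array 2 or caffeine-minus array 2, Cdt1 and Chaf1a were no longer called and 2 rose. After quantile normalization 10 fell. The part of cell division in the Uhrf1 difference was not tested.

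The labelled cell type was checked by its own markers. Of 14 listed granulocyte markers all 14 fell (21.7% over all genes), with a median log2 difference of -0.62. Their mean log2 level was 9.36 to 9.41 in the caffeine-plus arrays, against 9.96 to 10.12 in the caffeine-minus arrays. The myeloperoxidase gene Mpo, at 12.59 ± 0.02 in caffeine-plus and 12.97 ± 0.01 in caffeine-minus arrays (SD, n = 3 each), and S100a9, at 11.87 ± 0.03 in caffeine-plus and 12.18 ± 0.00 in caffeine-minus arrays (SD, n = 3 each), were bright in both groups. Elane and Prtn3 were 2.14-fold and 1.75-fold lower. Of the same list, Ly6g, Csf3r and Mmp9 were dimmer, at means of 7.15, 7.28 and 6.20 in caffeine-plus arrays. In caffeine-minus arrays they were at 7.69, 7.79 and 6.71. Markers of other lists were bright too, with Prg2 at 11.45 and 12.09 and Cd34 at 9.70 and 10.84 in caffeine-plus and caffeine-minus arrays. How mature or pure the cells were was not tested. In bulk RNA, fewer cells of a type and less RNA per cell cannot be told apart.

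Markers of stem and progenitor cells, in which the de novo enzymes and TET genes are known to act, went both ways. Of these markers 2 of 8 were higher and 2 lower (16.2% and 21.7% over all genes). Their mean level was 8.24 to 8.28 in the caffeine-plus arrays, against 8.31 to 8.38 in the caffeine-minus arrays. Cd34 was 2.21-fold lower, Gata2 was 1.39-fold higher and Kit 1.22-fold higher. Monocyte and macrophage markers had 2 of 9 higher and 6 lower, at mean levels of 7.84 to 7.90 in caffeine-plus and 8.15 to 8.29 in caffeine-minus arrays, with Ly86 2.67-fold lower and Cd68 1.77-fold higher. Dendritic cell markers had 5 of 7 lower and the others not called, at 6.93 to 6.94 in caffeine-plus and 7.22 to 7.29 in caffeine-minus arrays, with Siglech 1.59-fold lower.

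Eosinophil, basophil and mast cell markers had 4 of 7 lower and the others not called, at 8.03 to 8.06 in caffeine-plus and 8.51 to 8.71 in caffeine-minus arrays, with Mcpt8 2.88-fold and Prg2 1.55-fold lower. B cell markers had 2 of 6 lower and the others not called (5.80 to 5.98 in caffeine-plus, 6.12 to 6.35 in caffeine-minus arrays), with Cd79b 3.29-fold lower. Megakaryocyte markers had 1 of 4 lower and the others not called (6.48 to 6.60 in caffeine-plus, 6.86 to 6.93 in caffeine-minus arrays), with Ppbp 2.11-fold lower. Erythroid markers had 2 of 7 higher and 1 lower (7.18 to 7.21 in caffeine-plus, 7.17 to 7.23 in caffeine-minus arrays), with Tfrc 1.41-fold higher and Alas2 1.57-fold lower. T and NK cell markers had 0 of 8 called by limma and 2 at an unadjusted p under 0.05 (5.24 to 5.53 in caffeine-plus, 5.32 to 5.37 in caffeine-minus arrays). Beside these counts of markers, 16.2% of all genes were higher and 21.7% lower, and 8597 of 19937 had an unadjusted limma p under 0.05. Markers of several cell types thus moved with the groups, and their part in the differences of the DNA methylation and TET genes was not tested. No value of these arrays is at 0, and a low log2 value was not read as absence.

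The genes whose pattern over the 6 arrays was most like that of each called gene were named by Pearson correlation among 17067 genes with ordinary names, as a description over 6 arrays that fall into 2 groups. For Tet2 they were Ccdc186, Herpud1 and Cask (r between 0.999 and 1.00). For Dnmt3a they were Tagln2, Tmbim6 and Asic3 (r between 0.999 and 1.00), and for Uhrf1 Muc1, Tsacc and Stk25, with r between 0.996 and 0.998. For Tet1 they were Rhag, Card6 and Icmt, with r between 0.994 and 0.998, and for Tet3 Grk4, Traf4 and Cluap1, with r between 0.995 and 0.999. High correlations were common over these arrays: 2011 genes reached r over 0.95 with Tet2 and 1878 with Dnmt3a, but 266 with Tet1 and 371 with Tet3, whose caffeine-minus arrays were more spread.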

How the data were processed

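RNA was isolated with Trizol, and 300 ng per sample was labelled with biotin (Encore Biotin Module, cDNA) for the arrays, per the labels' protocols. The authors deposited a table of 34760 probe sets by 6 arrays, read here as log2 values that the authors had already normalized, because they run from 1.90 to 13.98 and no header states a unit. The sources used here do not give the summarization, background correction or normalization. The values are relative, so a loss of total mRNA per cell under the transcription block would not show. Differences of dim probe sets are compressed. No scanner files or detection calls entered the work, and precision is limited by the number of arrays.

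Gene names come from the supplied platform annotation: a single symbol for 21640 probe sets, several for 1321 and no entry for 11799. Symbols were updated through the gene identifier in the reference gene table of GRCm38.p6, which held 21553 of the 21640. A gene is its probe set with the highest mean over the 6 arrays. The array's build is not given, so probe set coordinates are not printed.

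The groups were tested against each other with limma 3.58.1 (R 4.3.3) (lmFit and eBayes(trend = TRUE), two-sided, Benjamini-Hochberg over 19937 genes, threshold 0.05). The code was also run on simulated data with independent noise, in which 200 of 19937 genes were changed. It recovered 79% of log2 changes of 0.5 and 100% of changes of 1, and 4.79% of calls were false. Far fewer genes changed there than the 37.9% called here, so these rates may not carry over. The 7 genes, the related lists and the alternatives were chosen with earlier results of these data known. The text names every probe set of the 7 genes and the 3 members of each related list with the smallest p. It also names some of the brightest, dimmest or most changed markers, and the genes whose pattern was most like each called gene. Zbtb4, Cdt1, Chaf1a and the other genes whose calls turned with a setting are named besides. So are Trdmt1, the overlapping long non-coding genes and some genes without a probe set of their own. The comparison of the Tet3 probe sets with each other was added after seeing the data. Array medians lay between 6.49 and 6.60. Arrays of a group correlated at 0.986 to 0.992 and arrays of different groups at 0.959 to 0.965 (Pearson, across probe sets). No 2 arrays held identical values and the labels name no batch.

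Alternatives were a block for the replicate number, quantile normalization, median centring, a filter at the lowest 25% or at the median of mean level, averaging the probe sets of a gene, testing every probe set, array weights, eBayes with robust variance or without trend, and leaving out each array. All 16 were run for the counts over all genes, the 7 genes and the 6 related lists and for the differences of the 7 genes, and not for the marker lists, the ratios or other single genes. The ratios that hold Tet3 were also computed with its other probe set, a choice made after seeing the data.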

Additional observations from a re-analysis of the deposited data

How the results depend on the processing

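Under 16 alternatives the calls of Tet2, Dnmt3a, Uhrf1 and Tet1 held and Dnmt1 and Dnmt3b remained uncalled. The log2 difference ran from 0.89 to 0.99 for Tet2, from -0.51 to -0.43 for Dnmt3a, from -0.47 to -0.37 for Uhrf1 and from -0.67 to -0.36 for Tet1. For Dnmt1 it ran from -0.07 to 0.06 and for Dnmt3b from -0.04 to 0.04. The call of Tet3 was lost in 1 of the 16, the mean of its probe sets (-0.16, limma adjusted p = 0.20), and the range of its limma adjusted p was 0.00018 to 0.20. There the brightest probe set is averaged with one that was higher in the caffeine-plus arrays. With the other Tet3 probe set, an alternative chosen after seeing the data, the mean log2 ratio shifted by 0.68 in place of 1.50 for Tet2 to Tet3 and by 0.74 in place of -0.07 for Tet3 to Dnmt3a. Quantile normalization gave 4 lower maintenance partners (Cdca7 and Lig1 added) and 10 lower S phase genes (Mcm5, Rrm1, Rrm2 and Gins2 added), and the cause was not tested. Among genes above the median level, with fewer genes tested, 1 methyl-CpG reader fell, Zbtb4. Leaving out 1 array at a time gave 2 to 5 higher S phase genes and 0 to 1 lower methyl-CpG readers, in the second case Zbtb4 without caffeine-minus array 2, with fewer samples in each fit.

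Replicate numbers were not taken to pair the arrays, because the labels do not state a pairing. Same-numbered arrays deviated from their group means together at r = -0.03, 0.19 and 0.29. Caffeine-plus arrays 2 and 3 correlated best with the same-numbered caffeine-minus array, but caffeine-plus array 1 with caffeine-minus array 2 (0.13). These values do not settle whether the arrays are paired. With the replicate number as a block, 3388 genes rose and 4660 fell, beside 3229 and 4325 without it, and no call of the 7 genes changed. The excess of falls over all genes depended on the setting. With arrays centred on their medians 3674 rose and 3749 fell, while after quantile normalization 3381 rose and 4342 fell.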
